A study of Homo sapiens with 24 samples.

Results

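HCT116 oxpl-R cells, an oxaliplatin-resistant line of human colorectal adenocarcinoma, were compared with the parental HCT116 cells after the same joint treatment with E1A induction and oxaliplatin. The samples were chosen by their labels: 3 HCT116 oxpl-R libraries (genotype HCT116 oxpl-R TetOn-E1A) and 3 HCT116 libraries (genotype HCT116 TetOn-E1A), which are 6 of the 24 RNA-seq libraries in the series. Both groups received doxycycline at 0.5 µg/mL, which switches on an adenoviral E1A transgene, and after 3 h oxaliplatin at 25 µM for 24 h. The remaining libraries hold both lines untreated, with E1A alone and with oxaliplatin alone, 3 per condition, and were used here only to ask whether the difference between the lines depended on the treatment. Several rounds of brief, high-dose oxaliplatin treatment of HCT116 had given rise to the resistant line, whose karyotype is hypotetraploid and rearranged. All 24 libraries come from cells that carry the E1A cassette, so E1A and doxycycline itself cannot be told apart, and the E1A transcript was not analysed here. The labels number biological replicates without saying whether these were separate cultures, so the p-values measure the spread between these libraries. In bulk RNA, fewer cells of a kind and less RNA per cell cannot be told apart.

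Oxaliplatin forms platinum crosslinks in DNA, which stall replication and stabilize p53. p53 switches on the CDK inhibitor gene CDKN1A, and the retinoblastoma family proteins (RB1, RBL1, RBL2) then hold the genes of replication and mitosis down. E1A binds these pocket proteins, which frees E2F factors to drive S phase genes, and it also binds the acetyltransferases p300 and CBP. Replication genes typically carry E2F sites at their start, and mitotic genes carry a cell cycle homology region (CHR).

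The starts of 7 genes on which the comparison turns are shown first. They were chosen after their values were seen, and each is the 80 bases before the start of the gene, 5′ to 3′ on the strand of the gene, from RefSeq on GRCh38.p14. In the first 4, of mitotic genes, capitals mark the CHR letters TTTGAA. In the other 3, of genes of S phase, capitals mark E2F letters (TTTCCCGC or TTTGGCGC on either strand). A match describes the letters only.
CDC20, chr1:43358901-43358980 (+): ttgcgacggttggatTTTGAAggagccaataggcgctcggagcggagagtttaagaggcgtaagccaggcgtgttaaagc
PLK1, chr16:23678809-23678888 (+): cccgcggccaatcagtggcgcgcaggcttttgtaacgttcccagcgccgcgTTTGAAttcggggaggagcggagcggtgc
KIF23, chr15:69414269-69414348 (+): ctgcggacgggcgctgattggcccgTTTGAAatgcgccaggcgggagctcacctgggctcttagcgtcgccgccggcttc
CDCA8, chr1:37692436-37692515 (+): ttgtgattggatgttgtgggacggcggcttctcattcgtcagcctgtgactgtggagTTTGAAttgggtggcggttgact
E2F1, chr20:33686386-33686465 (-): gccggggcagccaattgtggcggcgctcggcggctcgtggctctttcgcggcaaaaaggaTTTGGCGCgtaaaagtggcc
CDT1, chr16:88803709-88803788 (+): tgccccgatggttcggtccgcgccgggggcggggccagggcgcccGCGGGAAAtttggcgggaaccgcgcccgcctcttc
DTL, chr1:212035668-212035747 (+): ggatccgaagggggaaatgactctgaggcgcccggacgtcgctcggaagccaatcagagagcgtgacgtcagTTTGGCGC

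The libraries of HCT116 held 27543348, 29671533 and 30034935 estimated counts, and those of HCT116 oxpl-R held 31146704, 29500527 and 37927720. Genes of the mitochondrial genome took 17.1%, 16.01% and 17.7% of the counts in HCT116 and 12.2%, 14.6% and 15.01% in HCT116 oxpl-R. HCT116 replicate 1 stood apart from the other libraries of its line. Of 11511 genes with at least 50 counts on average, 15.6% differed in it by over 2-fold from the mean of the other 2 HCT116 libraries, 1732 of them lower and 66 higher. The same share was 1.07% and 2.15% in HCT116 replicates 2 and 3, and 2.15%, 1.09% and 3.75% in the HCT116 oxpl-R libraries. Among epithelial markers, KRT8, a keratin of simple epithelia and the most abundant of the 12 measured, was at 143133 to 202890 normalized counts in HCT116 and at 136864 to 170725 in HCT116 oxpl-R. EPCAM, an epithelial adhesion molecule, was at 7511 to 10865 against 5531 to 8592, and CDX2, the intestinal transcription factor, at 980 to 1358 against 1492 to 1680, and none of these 3 passed the test. Of the 12 markers, 2 were called higher in HCT116 oxpl-R and 1 lower (KRT20, log2FC -2.85), and 0 to 2 were at 0 in a library. Those higher were MUC13 (log2FC 4.32) and CDH17, an intestinal cadherin with 0 counts in HCT116 and 5.57 to 6.15 in HCT116 oxpl-R, at least 1.80-fold higher, whose call was lost without any 1 of the 6 libraries.

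Between the lines, 3586 of 19914 genes tested (18%) passed an adjusted p-value of 0.05 in edgeR's quasi-likelihood test, 1949 of them higher in HCT116 oxpl-R cells (9.79%) and 1637 lower (8.22%). Genes that also passed |log2FC| > 1 are called DEGs below. There were 2133 DEGs, of which 1399 were upregulated and 734 downregulated in the resistant line. For 7214 genes (36.2%) no library of one line fell within the range of the other, and 2085 of the DEGs were among these. Without HCT116 replicate 1 there were 1817 DEGs, and 1598 of the 2133 were DEGs again, all with the same sign. In limma on log2(value + 1) of the second deposited table, without normalization for library size, 1625 of 1972 DEGs were upregulated and 347 downregulated. The libraries of that table summed to 31178143, 33462969 and 33896100 in HCT116 and 35432726, 33300593 and 42613322 in HCT116 oxpl-R. Differences in depth were thus left in these 2 numbers. Of the 1798 DEGs between the untreated lines, 1013 (56.3%) were also DEGs here, which is 47.5% of the DEGs of the present comparison, and 1012 of them had the same sign. The median log2FC of all genes tested was 0.10. The counts of called list members below stand against these shares of all genes. All values per library below are counts normalized for library size, and every adjusted p comes from the edgeR test.

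**Figure D1:**
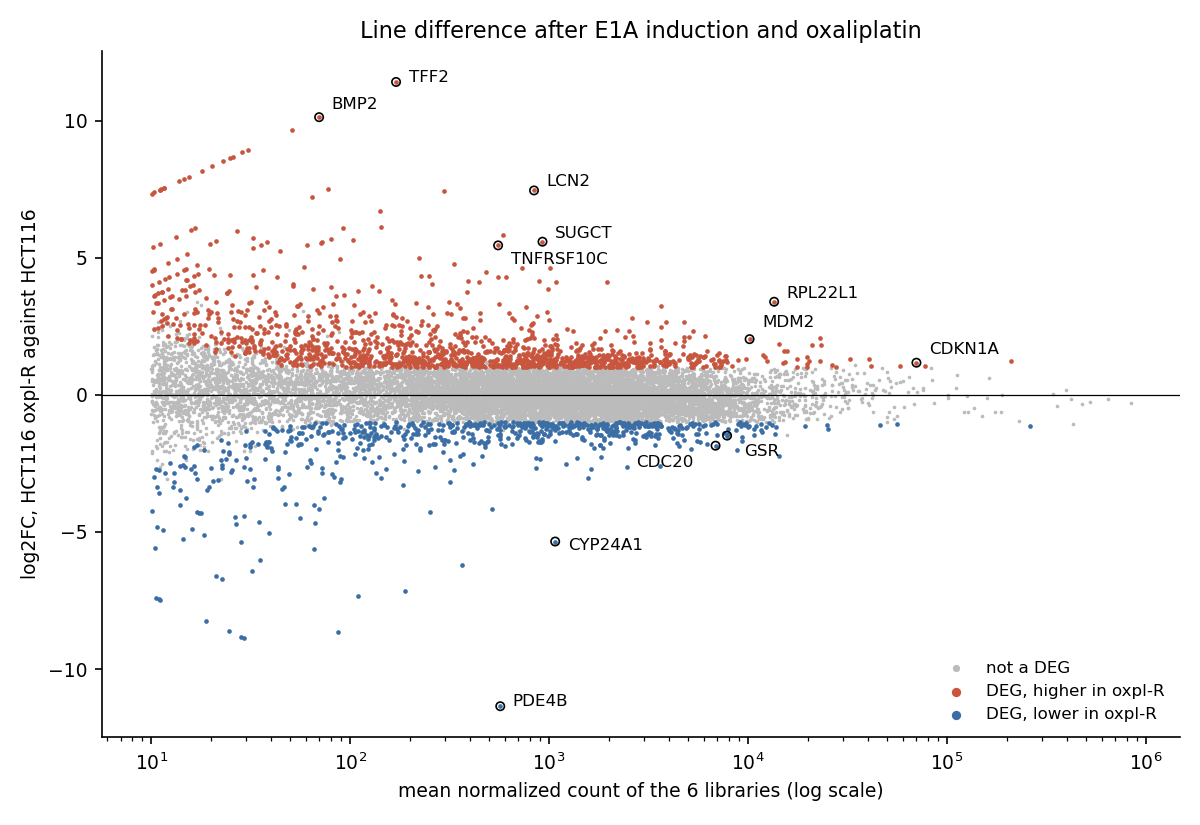
Mean normalized count of the 6 libraries (log scale) against the log2FC of HCT116 oxpl-R over HCT116, with 13367 genes of at least 10 counts on average as points, upregulated DEGs red, downregulated DEGs blue, others grey. TFF2 and BMP2, with no count in HCT116, stand at the top, PDE4B and CYP24A1 stand at the bottom, and MDM2, CDKN1A and RPL22L1 are the named upregulated genes of high abundance.

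Several of the most upregulated genes had no counts in the parental line. TFF2, a secreted trefoil peptide of the gastrointestinal mucosa (chr21:42346357-42350997), had 0 counts in all HCT116 libraries and 396, 324 and 300.5 in HCT116 oxpl-R. A count of 0 allows 3 counts per library, so TFF2 was at least 103.9-fold higher (adjusted p = 2.62e-06). BMP2, a bone morphogenetic protein ligand (chr20:6767686-6780246), had 0 counts in HCT116 and 148, 124 and 147 in HCT116 oxpl-R, at least 42.8-fold higher (adjusted p = 4.91e-07). SPTLC3, a subunit of serine palmitoyltransferase, which starts sphingolipid synthesis, was likewise at 0 in HCT116 and at least 31.2-fold higher. GLIS3-AS1, a long non-coding RNA antisense to GLIS3, was at 0 in HCT116 and at least 15.7-fold higher. The strand setting of the counting was not given in the sources used here, so GLIS3-AS1 and GLIS3, which was also called higher (log2FC 4.03), may share reads.

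LCN2, the iron-carrier binding lipocalin (chr9:128149071-128153453), had 6.65, 9.74 and 11.8 counts in HCT116 and 1376, 1804 and 1829 in HCT116 oxpl-R. Its log2FC was 7.45 (SE 0.33, adjusted p = 1.51e-09). Every resistant library was far above every parental one. NEDD9, a scaffold of integrin signalling, had 28.8, 8.66 and 22.4 counts against 1389, 1336 and 732 (log2FC 5.84, SE 0.41). IL13RA2, a decoy receptor for interleukin 13, had 0 to 1.08 counts in HCT116 and 136 to 183 in HCT116 oxpl-R, a ratio of 215 with a counting interval of 59.5 to 1775. PURPL, a p53-inducible long non-coding RNA, had 1.07 to 3.33 counts against 214 to 338 (log2FC 6.71). ANXA8, an annexin, and SLC5A1, the intestinal sodium-glucose cotransporter, had log2FC of 6.10 and 6.08. The value of SLC5A1 became 7.24 without HCT116 replicate 1, and that of ANXA8 7.84 without HCT116 replicate 3. KCNH8 and PRICKLE2, a potassium channel and a planar polarity protein, had ratios of 179 (49.5 to 1477) and 59.4 (20.3 to 288). SMIM10, a small membrane protein, is an example of the reach of HCT116 replicate 1: it had 10.1 counts there and 0 in the other 2 HCT116 libraries, against 484 to 699.9 in HCT116 oxpl-R, and its log2FC of 7.43 became 12.23 without that library.

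The strongest downregulation was in PDE4B, a cyclic AMP phosphodiesterase (chr1:65792514-66374579), with 912, 1156 and 1339 counts in HCT116 and 0, 0 and 0.843 in HCT116 oxpl-R. The ratio of HCT116 to HCT116 oxpl-R rests on a single count and had a counting interval from 725 upward. EXO5, a single-strand DNA exonuclease, had 123 to 236 counts in HCT116 and at most 0.843 in HCT116 oxpl-R. CYP24A1, which breaks down active vitamin D (chr20:54153446-54173986), had 2093, 1911 and 2277 counts in HCT116 and 42.7, 66.7 and 44.7 in HCT116 oxpl-R (log2FC -5.35, SE 0.28, adjusted p = 8.07e-09). The parental libraries again stood far apart from the resistant ones. LIPG, endothelial lipase, had 198 to 256 counts against 0.843 to 1.86 (log2FC -7.33). PODXL2, a sialomucin, and PCDH7, a protocadherin, had log2FC of -7.16 and -6.21, which became -8.54 without HCT116 oxpl-R replicate 2 for PODXL2 and -7.88 without HCT116 oxpl-R replicate 3 for PCDH7. LYL1, a helix-loop-helix factor, had 58.8 to 67.1 counts against 0 to 1.03. TCF21 (log2FC -5.63), ITGBL1 (-5.03), KIRREL2 (-4.68), PRXL2A (-4.27) and TENM3 (-4.17), which include a helix-loop-helix factor and cell surface proteins, completed the 12 genes named in that direction. TCF21 was at -6.50 without HCT116 oxpl-R replicate 2.

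Targets of p53 were higher in the resistant line. Of 46 measured, 28 were called higher and 1 lower, with a median log2FC of 0.87, against 9.79% and 8.22% and a median of 0.10 over all genes. Their mean level was 10.4, 10.6 and 10.7 in HCT116 and 11.5, 11.5 and 11.5 in HCT116 oxpl-R (log2 of normalized counts, scaled over the 24 libraries). MDM2, the ubiquitin ligase that degrades p53 (chr12:68808177-68845544), had 3842, 3603 and 4573 counts in HCT116 and 20048, 18163 and 10876 in HCT116 oxpl-R. Its log2FC was 2.03 (SE 0.24, adjusted p = 3.00e-05), with no overlap although HCT116 oxpl-R replicate 3 was lower than the other 2. CDKN1A, the CDK inhibitor p21, had 51706, 39460 and 38496 counts against 93664, 92299 and 105987 (log2FC 1.17, SE 0.20, adjusted p = 8.71e-04). TP53I3, a quinone oxidoreductase, had 1409, 1961 and 1886 counts against 7545, 8409 and 10556 (log2FC 2.33, SE 0.21). PLK2 and SPATA18, a damage-induced kinase and a gene of mitochondrial quality control, had log2FC of 2.12 and 2.72. KITLG, the ligand of the receptor KIT, was the target called lower (log2FC -1.17), but its samples overlapped and the call was lost without HCT116 oxpl-R replicate 2, while the log2FC was -1.78 without HCT116 oxpl-R replicate 3. MDM2 and CDKN1A were named after their values were seen.

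Death receptors, most of which p53 also controls, were the part of the apoptosis machinery in which most members changed. Of 6 receptor genes, 5 were called higher, 83.3% against 9.79% of all genes higher. TNFRSF10C, a decoy receptor for TRAIL without a death domain, had 21.2, 12.99 and 39.7 counts in HCT116 and 1092, 1074 and 1084 in HCT116 oxpl-R. Its log2FC of 5.45 (SE 0.38, adjusted p = 2.92e-06) was the highest of the list. TNFRSF10D, the other membrane decoy, had 1583, 1961 and 1877 counts against 7982, 8585 and 6598 (log2FC 2.10, SE 0.20). The death-domain receptors FAS and TNFRSF10A had log2FC of 1.36 and 1.16, and TNFRSF10B had 0.66, a call that was lost when HCT116 replicate 2 or 3 or HCT116 oxpl-R replicate 1 or 2 was left out. Of 7 caspases, the initiators CASP8 and CASP10 were called, CASP8 higher (0.83, adjusted p = 0.0417, a call lost without HCT116 oxpl-R replicate 2 or 3) and CASP10 lower (-2.06). APAF1, the core of the apoptosome, was higher (1.29).

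Of 15 genes of the BCL2 family, 3 were called, a share (20%) near the 18% of all genes. BAX, a pore-forming effector, had 3746, 3357 and 2941 counts in HCT116 and 8223, 8190 and 10118 in HCT116 oxpl-R (log2FC 1.40, SE 0.20, adjusted p = 1.56e-04). The BH3-only genes BMF and BID, which trigger the effectors, were lower (BID by -0.78, a call lost without HCT116 replicate 2 or HCT116 oxpl-R replicate 1 or 2), with BMF at 394, 267 and 222 counts against 65.0, 79.0 and 79.3 (log2FC -1.98, SE 0.28). The 4 anti-apoptotic genes measured did not pass the test: BCL2L1 had a log2FC of 0.20 and MCL1 of 0.40. BBC3, which encodes PUMA, had a log2FC of -0.16 (adjusted p = 0.597) and its samples overlapped.

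The host proteins that E1A binds were compared next. The pocket protein genes RB1, RBL1 and RBL2 had log2FC of 0.22, 0.22 and 0.42, and none of the 3 was called. RB1 had 1438, 1310 and 1734 counts in HCT116 and 2169, 1798 and 1239 in HCT116 oxpl-R, which overlapped. Among acetyltransferases, EP300, which encodes p300, had a log2FC of -0.43 (adjusted p = 0.319), whereas CREBBP, which encodes CBP, was lower (-0.96) and KAT2B, which encodes PCAF, was higher (1.52). The CREBBP call was lost without HCT116 oxpl-R replicate 3. TBP, the TATA-binding protein, was lower (-1.50), with 1435, 1088 and 1138 counts against 460.1, 465 and 371. Over the whole list of 22 genes, 3 were called higher and 6 lower (40.9% against 18% of all genes), with a median of -0.30. The median was -0.09 without HCT116 replicate 1, and 4 were lower without HCT116 oxpl-R replicate 2 or 3.

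Among E2F factors and their DP partners, 1 of 10 was called higher and 4 lower, 50% called against 18% of all genes. Only 2 were lower when HCT116 replicate 2 or HCT116 oxpl-R replicate 2 was left out. E2F1 (chr20:33675477-33686385), the activator best known as released by E1A, had 4659, 3912 and 3664 counts in HCT116 and 3355, 2557 and 3637 in HCT116 oxpl-R. The samples did not overlap, but the log2FC of -0.36 (SE 0.20) did not pass the test (adjusted p = 0.254). E2F2, another activator, was lower (-1.18), with 3035, 1858 and 2023 counts against 1147, 819 and 1090. E2F4, the factor of the repressive complexes of quiescence, was lower (-0.94), and TFDP1 and TFDP2, the partners, were lower and higher (-0.75 and 1.88). The TFDP1 call was lost without HCT116 replicate 2 or HCT116 oxpl-R replicate 2. TFDP2 had 558 counts in HCT116 replicate 1 and 1726 and 1841 in the other 2, against 4511 to 5348 in HCT116 oxpl-R.

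Genes of DNA replication and S phase were more often lower than higher in the resistant line. Of 58 measured, 18 were called lower and 1 higher, with a median log2FC of -0.47, so that 32.8% were called, against 18% of all genes. Leaving out single libraries moved the number called lower from 18 to between 8, without HCT116 oxpl-R replicate 2, and 28, without HCT116 replicate 1, with medians of -0.42 and -0.52. CDT1, which loads the replicative helicase (chr16:88803789-88809258), had 6562, 5358 and 5197 counts in HCT116 and 2566, 1734 and 2752 in HCT116 oxpl-R (log2FC -1.28, SE 0.22, adjusted p = 8.00e-04). TK1, thymidine kinase, had a log2FC of -1.44, MCM3, a helicase subunit, of -1.13, and LIG1, the ligase of Okazaki fragments, of -1.11. Each of these was lower in every resistant library. PCNA, the polymerase clamp and also a p53 target, was the member called higher: it had 8784, 12997 and 13919 counts against 23805, 23925 and 19974 (log2FC 0.92, SE 0.21).

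Genes of the G2 and M phases were also more often lower. Of 61 measured, 32 were called lower and none higher, against 8.22% of all genes lower, 56 had a negative log2FC, and the median was -0.91. With single libraries left out, 22 to 44 were called lower, and 44 without HCT116 replicate 1 (median -0.99). The mean level was 10.4, 10.8 and 10.8 in HCT116 and 9.55, 9.49 and 10.2 in HCT116 oxpl-R, so that HCT116 oxpl-R replicate 3 lay nearest to the parental libraries. CDC20, the activator of the anaphase-promoting complex (chr1:43358981-43363203), had 12841, 10346 and 9091 counts in HCT116 and 2687, 2483 and 3751 in HCT116 oxpl-R. Its log2FC was -1.86 (SE 0.22, adjusted p = 3.47e-05). Of 8 genes of the mitotic kinases and the Aurora B complex, 6 were lower (median -1.41). PLK1, a kinase of mitotic entry, had 8338, 5960 and 6105 counts against 2022, 1591 and 2403 (log2FC -1.76, SE 0.22), and AURKB had 4644, 4157 and 3744 against 1144, 949.6 and 1573 (-1.77, SE 0.22). CENPF, a kinetochore protein, had a log2FC of -1.79, which was -1.12 without HCT116 replicate 1. KIF23, a kinesin of cytokinesis, had 1241, 1256 and 1563 counts against 289, 273 and 666 (-1.72, SE 0.31). CCNB1, the cyclin of mitotic entry, was not called (-0.42), and its samples overlapped.

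The promoters of these lists were searched for the letters shown at the opening, in the window from 250 bases before to 50 bases after each start in RefSeq. CHR letters (TTTGAA on either strand) were in 39 of 54 promoters of the G2 and M list (72.2%) and in 15.4% of all 27305 promoters. They were in 21 of the 28 G2 and M promoters of genes called lower (75%) and in 18 of the 26 of genes not called (69.2%). E2F letters were in 22 of 52 promoters of the replication list (42.3%), against 2.31% of all. They were in 6 of 16 replication genes called lower and in 13 of 32 not called. The letters thus marked the lists, and were about as frequent in the members that passed the test as in those that did not.

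Repair genes were grouped by pathway. Of 21 genes of nucleotide excision repair, which cuts out intrastrand crosslinks, 4 were called higher and 2 lower (median log2FC 0.35), 28.6% against 18% of all genes. CDK7, MNAT1 and CCNH, the kinase module of TFIIH, had log2FC of 1.18, 1.13 and 1.09, and the calls of MNAT1 and CCNH were lost without HCT116 oxpl-R replicate 2 or 3. Each was lowest in HCT116 replicate 1: CDK7 had 400.3 counts there, 962 and 1260 in the other 2, and 2205, 2285 and 1450 in HCT116 oxpl-R. ERCC2, the TFIIH helicase XPD, was lower (-1.02), and ERCC1, part of the 5′ nuclease, was not called (0.25). The list had 6 called higher and 2 lower without HCT116 replicate 1 (median 0.19), but 1 higher and 2 lower without HCT116 oxpl-R replicate 2 (median 0.40).

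Of 40 genes of crosslink repair and homologous recombination, 11 were called lower and none higher (median -0.53), 27.5% against 8.22% of all genes lower. Without HCT116 replicate 1, 15 were lower and 2 higher. BLM, a helicase that resolves recombination intermediates, had 343, 489 and 519 counts in HCT116 and 67.8, 91.3 and 272 in HCT116 oxpl-R (log2FC -1.64, SE 0.40). RBBP8, which starts end resection, had a log2FC of -1.59, BRCA2, a recombination mediator, of -1.45, and FANCI of -1.28. The BRCA2 call was lost in 1 processing alternative, but not when a single library was left out. For BLM and BRCA2, HCT116 oxpl-R replicate 3 was nearest to the parental libraries, and without it their log2FC were -2.50 and -2.15. Of 18 genes of translesion synthesis and mismatch repair, POLH, a polymerase that bypasses platinum adducts and a p53 target, was higher (0.88), and MAD2L2 was lower (-0.60), a call lost without any of 4 libraries (HCT116 replicates 2 and 3, HCT116 oxpl-R replicates 1 and 2).

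Among 19 genes of the damage checkpoint, 3 were called higher and 4 lower, 36.8% called against 18% of all genes. The number lower was 1 without HCT116 replicate 2 or HCT116 oxpl-R replicate 2 and 2 without HCT116 oxpl-R replicate 1. RNF168, a ubiquitin ligase at breaks, was higher: it had 545, 534 and 498 counts against 1662, 1634 and 1022 (log2FC 1.45, SE 0.24). MDC1, the scaffold of the same pathway, was lower, with 3519, 2436 and 2432 counts against 1292, 1022 and 1037 (-1.32, SE 0.22). The ATM, ATR, CHEK1 and CHEK2 kinase genes were among the members that were not called.

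Copper and platinum transport was compared because copper carriers also move platinum drugs. Of 21 genes, 5 were called higher and 1 lower (median 0.33), 28.6% against 18% of all genes. The median fell to between 0.18 and 0.22 when HCT116 replicate 3 or HCT116 oxpl-R replicate 1 or 2 was left out. ATOX1, the copper chaperone of the cytosol (chr5:151742316-151772532), had 738.5, 1002 and 990.0 counts in HCT116 and 2350, 3041 and 4206 in HCT116 oxpl-R (log2FC 1.81, SE 0.24, adjusted p = 1.05e-04). ABCB1, the multidrug efflux pump, had 29.9, 27.1 and 42.7 counts against 96.6, 71.8 and 145 (1.65, SE 0.36), and ABCG2, another pump, had a log2FC of 1.37 that lost its call without HCT116 oxpl-R replicate 3. The importer SLC31A1 and the exporters ATP7A and ATP7B had log2FC of 0.14, 0.70 and -0.32 and were not called. ABCC2, an export pump for conjugates, was lower (-0.70), a call lost without HCT116 replicate 2 or HCT116 oxpl-R replicate 2 or 3. Of 8 metallothionein genes and their regulator, 3 were lower and none higher, 37.5% against 8.22% of all genes lower. Only 1 was lower when HCT116 replicate 2 or 3 or HCT116 oxpl-R replicate 1 or 2 was left out. MT2A, the most abundant, had 5157, 4729 and 3823 counts against 1829, 2444 and 2204 (-1.08, SE 0.20). Its call was lost in 1 processing alternative, but not when a single library was left out. The metallothionein genes are near-identical copies, and their separate values are uncertain.

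Of 45 glutathione and antioxidant genes, 11 were called higher and 4 lower, 33.3% against 18% of all genes, with the number lower near the share of all genes (8.22%). SLC7A11, the cystine importer that feeds glutathione synthesis, had 124, 133 and 130.0 counts in HCT116 and 301, 475 and 438 in HCT116 oxpl-R (log2FC 1.65, SE 0.27). GLRX, glutaredoxin, and NQO1, a quinone reductase, had log2FC of 1.71 and 1.36, and both were lowest in HCT116 replicate 1. GSR, glutathione reductase, which keeps glutathione reduced, was lower. It had 12525, 10421 and 11762 counts against 4484, 4121 and 3770 (-1.49, SE 0.19, adjusted p = 6.29e-05). GGT1, which recycles extracellular glutathione, and GSTP1, a glutathione transferase, were also lower (-1.79 and -0.80), GSTP1 with a call lost without HCT116 oxpl-R replicate 2.

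The aldo-keto reductases, which detoxify carbonyls, had 3 of 11 genes called higher, 27.3% against 9.79% of all genes higher. AKR1B10 had 6.65, 41.1 and 33.1 counts in HCT116 and 283, 251 and 363 in HCT116 oxpl-R (log2FC 3.46, SE 0.43), and AKR1C3 had 26.6, 49.8 and 58.7 against 311, 294 and 347 (2.81, SE 0.31). AKR1C2 passed narrowly (1.59, adjusted p = 0.0469) and lost the call without HCT116 replicate 1 or 2 or HCT116 oxpl-R replicate 2 or 3, while its log2FC was 2.68 without HCT116 replicate 3. Reads of the AKR1C genes may be shared between near-identical copies. Of 10 redox genes that the study named from its untreated libraries of the same lines, 6 were higher and 1 lower. This list was chosen on samples of the series and is not independent evidence of a direction. Beyond those above its called members included AHR, the aryl hydrocarbon receptor (1.65), NDUFB5, a subunit of respiratory complex I (1.65), and CAT, catalase (0.58). The CAT call was lost without HCT116 replicate 2 or 3 or HCT116 oxpl-R replicate 1 or 2. NDUFB7, NDUFA2 and GPX3 were not called.

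Interferon-stimulated genes were more often lower than higher. Of 45 measured, 13 were called lower and 1 higher, 31.1% against 18% of all genes called. The median log2FC was -0.78, or -0.57 with genes at 0 in a line set at their bound. BST2, which tethers budding virus, had 62.1, 102 and 68.4 counts in HCT116 and 9.29, 4.10 and 14.3 in HCT116 oxpl-R (log2FC -3.03, SE 0.47). DDX60, an RNA helicase, had 42.1, 41.1 and 49.1 counts against 10.2, 4.10 and 4.22 (-2.81, SE 0.54). SAMD9 and IFITM1 had log2FC of -2.15 and -1.88, and SAMD9 was at -2.90 without HCT116 oxpl-R replicate 3. IFI27 was called higher (1.02), a call lost without HCT116 replicate 3 or HCT116 oxpl-R replicate 3. In antigen presentation by MHC class I, 8 of 19 genes were lower and none higher (median -0.61), 42.1% against 8.22% of all genes lower. Only 4 were lower when HCT116 replicate 2 or HCT116 oxpl-R replicate 2 was left out. TAPBP, which loads peptides, had 5437, 3357 and 3572 against 1375, 1173 and 1376 (-1.66, SE 0.23). The class I genes are polymorphic and alike, so reads may be divided among them.

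Of 20 targets of NF-kappaB, 3 were lower and 1 higher, a share (20%) near that of all genes. ICAM1, an adhesion molecule and the member called higher, had 298, 215 and 205 counts in HCT116 and 1447, 1360 and 1359 in HCT116 oxpl-R (log2FC 2.53, SE 0.24, adjusted p = 4.18e-06). NFKBIE and NFKB1, regulators of the pathway, were lower (-1.35 and -1.21). Of 22 AP-1 and immediate early genes, 6 were lower and 1 higher, 31.8% against 18% of all genes. Those lower included KLF2 (-1.66), NR4A1 (-1.48) and MYC (-0.79), and DUSP6, a phosphatase of ERK, was higher (0.96). The MYC call was lost without HCT116 oxpl-R replicate 3, and 3 genes of the list were lower without HCT116 oxpl-R replicate 2. None of the 8 AP-1 subunit genes was called. The integrated stress response had 6 of 25 genes called in each direction, 48% called against 18% of all genes. NUPR1 and DDIT3, transcription factors of the response, were higher (3.48 and 1.62). ATF5 and SLC7A5, a factor and an amino acid importer, were lower (-0.97 and -0.91). Only 2 genes of the list were lower, and 4 or 5 higher, when HCT116 replicate 2 or any 1 of the HCT116 oxpl-R libraries was left out. NUPR1 had 0, 5.41 and 1.07 counts against 19.5, 14.4 and 42.2, and its log2FC was 5.26 without HCT116 replicate 2, with the call lost without HCT116 oxpl-R replicate 3. Of 21 heat shock genes, 3 were called higher and 4 lower, 33.3% against 18% of all genes. HSPA5, the chaperone of the endoplasmic reticulum, was higher (0.82), and HSPB1 and SERPINH1 were lower (-1.25 and -1.23). The numbers higher and lower were 3 and 7 without HCT116 replicate 1, and 1 and 4 without replicate 2 of either line.

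Adhesion genes changed in both directions. Of 31 integrin and laminin genes, 8 were higher and 1 lower (median log2FC 0.57), 29% against 18% of all genes called. The number higher was 5 when HCT116 replicate 3 and 12 when HCT116 replicate 1 was left out. ITGB7, a beta integrin of leukocytes, had 7.76, 18.4 and 13.9 counts in HCT116 and 438, 472 and 379.5 in HCT116 oxpl-R (log2FC 4.99, SE 0.34, adjusted p = 1.07e-07). ITGB8 and ITGA2 had log2FC of 2.24 and 1.25. Of 38 genes of epithelial junctions and mesenchymal markers, 6 were higher and 10 lower, 42.1% against 18% of all genes. The number lower was 4 when HCT116 oxpl-R replicate 2 and 6 when HCT116 oxpl-R replicate 3 was left out. CLDN3, a tight junction claudin, had 1443, 1319 and 967 counts against 395, 373 and 499 (-1.56, SE 0.24), while CLDN1, another claudin, had 9.98, 14.1 and 12.8 against 42.7, 45.1 and 61.6 (2.01, SE 0.44). AFDN, which ties nectins to actin, was lower (-1.34) and NECTIN4 was higher (1.83). The related repressors SNAI2 and SNAI1 were called in opposite directions: SNAI2 had 26.8, 32.5 and 39.7 counts against 149, 193 and 165 (2.35, SE 0.35), and SNAI1 had a log2FC of -1.32.

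Among 28 genes of the BMP pathway, 3 were higher and 2 lower, 17.9% against 18% of all genes. Beside BMP2, the secreted inhibitors NOG and FST were higher: NOG had 56.6, 35.7 and 57.7 counts against 156, 151 and 176 (log2FC 1.69, SE 0.29), and FST had a log2FC of 1.89, a call lost without HCT116 oxpl-R replicate 2. BMP6, another ligand, and ID3, a target of the pathway, were lower (-1.65 and -0.91). Of 17 targets of WNT signalling, 4 were higher and 2 lower, 35.3% against 18% of all genes. DKK1, a secreted inhibitor (1.83), CCND1, which encodes cyclin D1 (1.01), and AXIN2 (0.77) were higher. NOTUM and RNF43, feedback inhibitors, were lower (-1.70 and -1.08). Only 2 WNT targets were called higher when HCT116 replicate 2 or 3 or HCT116 oxpl-R replicate 2 was left out. The AXIN2 call was lost without HCT116 replicate 2 or 3 or HCT116 oxpl-R replicate 1 or 2. LEF1, a factor of the pathway, was the other gene called higher, from 1.11, 0 and 0 counts to 8.36, 11.3 and 12.7, a ratio of 29.1 with a counting interval of 5.23 to 1150, and its call was lost without any of 4 libraries (replicates 2 and 3 of either line).

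Of 29 intestinal genes, 4 were higher and 1 lower, a share (17.2%) near that of all genes (18%), and 2 were called in each direction without HCT116 oxpl-R replicate 1. MUC13, a membrane mucin, had 35.5, 11.9 and 17.1 counts in HCT116 and 540.5, 467 and 282.5 in HCT116 oxpl-R (log2FC 4.32, SE 0.39, adjusted p = 2.89e-06). KLF5, a factor of crypt cells, was higher, from 1752, 1743 and 1875 counts to 5646, 4887 and 3035, and KRT20, a keratin of differentiated cells, was lower (-2.85). TFF1, a trefoil peptide like TFF2, had 0 counts in HCT116 and 25.2, 9.13 and 8.39 in HCT116 oxpl-R, at least 4.35-fold higher, a call lost without HCT116 oxpl-R replicate 1. Markers of other cell types were at low levels, with 15 of 18 not called. The 6 leukocyte markers summed to 87.6, 84.4 and 121 counts in HCT116 and 55.7, 77.9 and 63.2 in HCT116 oxpl-R, with CSF1R, the most abundant over all 6 libraries, at 22.8 to 68.8, and the 3 endothelial markers to 1.86 to 11.9. The 6 fibroblast markers summed to 1102, 903 and 824 in HCT116 and 655, 624 and 1723 in HCT116 oxpl-R, with COL1A1 at 579 to 1275 and 1 or 2 of the 6 at 0 in every library. COL1A2, a collagen of fibroblasts, was called higher, but its counts were 2.22, 6.49 and 0 in HCT116 and 2.79, 11.3 and 412 in HCT116 oxpl-R, so that replicate 3 alone was high, and the call was lost without it. The globin genes HBB and HBA1 were lower, with HBB at 266, 337 and 88.6 counts against 111, 3.08 and 29.5, and the HBB call was lost without HCT116 oxpl-R replicate 3. The part of such transcripts in the other results was not tested.

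Cytosolic ribosomal protein genes had 13 of 82 members called higher and 3 lower (median log2FC 0.36), 19.5% against 18% of all genes. Their mean log2 level was 13.8 in HCT116 replicate 1, against 14.7 and 14.6 in the other 2 HCT116 libraries and 14.58, 14.86 and 14.999 in HCT116 oxpl-R. Without that library, 15 were higher and 4 lower, and the median was 0.22. The number higher depended more on the other libraries: it was 22 without HCT116 replicate 2, 27 without HCT116 oxpl-R replicate 1, and 5, with 3 lower, without HCT116 oxpl-R replicate 3. Only 1 was lower when HCT116 replicate 2 or 3 or HCT116 oxpl-R replicate 1 or 2 was left out. RPL22L1, a paralog of RPL22 that is not in every ribosome (chr3:170864875-170870208), had 1632, 2736 and 2684 counts in HCT116 and 22934, 24422 and 26789 in HCT116 oxpl-R (log2FC 3.39, SE 0.24, adjusted p = 1.68e-07). RPL11, which also restrains MDM2, had 5055, 15788 and 15480 counts against 25520, 34081 and 26275 (1.24, SE 0.32). Nuclear subunits of oxidative phosphorylation had 8 of 69 members higher and 1 lower (median 0.20), 13% called against 18% of all genes, with a mean log2 level of 11.7 in HCT116 replicate 1 against 12.2 to 12.5 in the other 5 libraries. ATP5F1C, a subunit of ATP synthase, had 888 counts in HCT116 replicate 1, 4141 and 4954 in the other 2 and 8362, 9471 and 7831 in HCT116 oxpl-R (1.36, SE 0.40), and the call was lost without HCT116 oxpl-R replicate 3. Without HCT116 replicate 1, 9 were higher and 4 lower (median 0.05), and 5 were higher and 3 lower without HCT116 oxpl-R replicate 3. The median was 0.32 without HCT116 replicate 2. None of the 13 protein-coding genes of the mitochondrial genome was called (median -0.19, or -0.04 without HCT116 oxpl-R replicate 1), and 1 was called lower without HCT116 replicate 1 or HCT116 oxpl-R replicate 3.

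Replication-dependent histone genes, whose transcripts lack a poly(A) tail, had 12 of 50 members called higher and 3 lower, 30% against 18% of all genes. The median was -0.52 over all 50, -0.30 with genes at 0 in a line at their bound, and 0.77 over the 26 with at least 10 counts on average. The first of these ranged from -0.48 to -0.10 with single libraries left out, nearest to 0 without HCT116 replicate 2. H4C12 had 1.11, 5.41 and 6.41 counts in HCT116 and 32.5, 37.9 and 36.3 in HCT116 oxpl-R (log2FC 3.00, SE 0.62). Reads of near-identical histone genes may be divided among copies. Of 26 genes of cholesterol synthesis and uptake, 7 were lower and 1 higher, 30.8% against 18% of all genes. Only 3 or 4 were lower when HCT116 replicate 2 or any 1 of the HCT116 oxpl-R libraries was left out. MVD, a decarboxylase of the mevalonate pathway, was lower (log2FC -1.09), and ACAT2, an acetyl-CoA acetyltransferase, had a log2FC of -0.95, a call lost without HCT116 replicate 2 or 3 or HCT116 oxpl-R replicate 1 or 2.

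The line difference also varied by chromosome. Over the 13284 genes with a position and at least 10 counts on average, the median log2FC was 0.05. It was 0.62 on chromosome 3, where 271 of 765 genes were called higher and 22 lower. It was 0.51 on chromosome 21 (38 of 129 higher, 8 lower) and 0.37 on chromosome 5 (144 of 608 higher, 38 lower). On chromosome 16 the median was -0.27, with 35 of 620 genes higher and 151 lower. In the untreated lines the medians were 0.43 on chromosome 3, 0.30 on chromosome 21, 0.17 on chromosome 5 and -0.25 on chromosome 16. On chromosome 19 the median was -0.20 here and 0.13 between the untreated lines. With single libraries left out, the median ranged from 0.55 to 0.66 on chromosome 3, from 0.49 to 0.50 on chromosome 21 and from 0.26 to 0.42 on chromosome 5. It ranged from -0.34 to -0.24 on chromosome 16 and from -0.29 to -0.09 on chromosome 19, nearest to 0 on both without HCT116 replicate 1. In the paper's karyotype of the resistant line, chromosomes 3 and 22 had more copies than chromosomes 5 and 21. The median on chromosome 22 was -0.13 here, with 34 of 342 genes higher and 38 lower. Of the genes named above, TFF2 lies on chromosome 21, RPL22L1 on chromosome 3 and ATOX1 on chromosome 5. The part of copy number in these medians and genes was not tested.

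Whether the line difference depended on the treatment was tested in a model of all 24 libraries, as the line difference after E1A and oxaliplatin minus the line difference in another condition. The 3 such tests share the 6 libraries described above. Against untreated cells, 43 of 22833 genes passed (0.188%), 24 with a positive and 19 with a negative difference, and 1938 had an unadjusted p below 0.05. Against oxaliplatin alone, 32 passed (0.14%), 31 positive and 1 negative, and 953 had an unadjusted p below 0.05. Against E1A alone, 45 passed (0.197%), 37 positive and 8 negative, and 1593 had an unadjusted p below 0.05. DESeq2 called 339, 108 and 191 genes in the same tests. A library outside the 6, HCT116 oxpl-R replicate 1 after oxaliplatin alone, had 1.38% mitochondrial counts, and without it 76, 45 and 58 genes passed.

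Against oxaliplatin alone, the genes that passed included 3 of the 10 E2F and DP factors, 10 of the 58 replication genes and 6 of the 61 G2 and M genes, all with a positive difference. Over 12 alternatives these counts ranged from 1 to 3, from 1 to 22 and from 0 to 13, lowest in a fit of the 12 libraries concerned (1, 1 and 0) and highest in DESeq2. No G2 and M gene passed without HCT116 replicate 2 or HCT116 oxpl-R replicate 1 or 3, and 4, 4 and 5 replication genes did. E2F1 had the smallest adjusted p of these. Its counts, scaled over the 24 libraries, were 3671, 3271 and 3564 in HCT116 after oxaliplatin and 4304, 3613 and 3385 after E1A and oxaliplatin. In HCT116 oxpl-R they were 718, 594 and 607 after oxaliplatin and 3099, 2363 and 3360 after E1A and oxaliplatin. The resistant line was thus far below the parental line after oxaliplatin alone and near to it with E1A. The difference of the line differences was 2.10 on the log2 scale (SE 0.24, adjusted p = 1.81e-05). In untreated cells E2F1 was at 2433, 2316 and 2852 in HCT116 and at 2533, 3015 and 2860 in HCT116 oxpl-R.

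CDT1 followed the same order, with 795, 533 and 519 counts in HCT116 oxpl-R after oxaliplatin and 2370, 1602 and 2543 with E1A as well, while HCT116 stayed between 4800 and 6061 in those conditions (difference 1.78, SE 0.28, adjusted p = 0.00211). MCM5, a helicase subunit, had a difference of 1.63 and ASF1B, a histone chaperone, of 1.86. DTL, which directs the destruction of CDT1, had 187, 140.1 and 361 counts in HCT116 oxpl-R after oxaliplatin and 940.2, 666 and 816 with E1A (difference 1.82, SE 0.36). The number of genes that passed was sensitive to single libraries. It was 7 without HCT116 replicate 2, 11 without HCT116 replicate 3, 10 without HCT116 oxpl-R replicate 1, 11 without HCT116 oxpl-R replicate 3 and 2 in a fit of the 12 libraries concerned. E2F1 and ASF1B passed in each of the 12 alternatives tried. CDT1 and MCM5 each lost their call in 1 of the 12, the fit of 12 libraries, and DTL in 6. Over the alternatives the difference ranged from 1.96 to 2.25 for E2F1 and from 1.75 to 2.10 for ASF1B.

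CDC20, a mitotic gene, scaled over the 24 libraries, was at 9096, 9774 and 9933 in untreated HCT116 oxpl-R, at 1638, 1264 and 1397 after oxaliplatin and at 2482, 2293 and 3465 after E1A and oxaliplatin. HCT116 had 8398 to 15302 in every condition. The line difference of CDC20 was 1.39 lower on the log2 scale than in untreated cells (difference -1.39, SE 0.25, adjusted p = 0.00879) and 1.14 higher than after oxaliplatin alone, which did not pass (adjusted p = 0.0585). PLK1 passed against both, with differences of -1.26 against untreated cells and 1.29 against oxaliplatin alone (adjusted p = 0.0493), but it lost these calls in 3 and 6 of 12 alternatives. The median line difference of the G2 and M list was -0.34 in untreated cells, -1.69 after oxaliplatin, -0.13 with E1A and -0.91 with both. For replication genes it was -0.33, -1.32, -0.15 and -0.47 in that order. For p53 targets it was 0.57, 0.94, 0.60 and 0.87.

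The p53 targets MDM2 and TP53I3 passed against both untreated cells and E1A alone. MDM2 was at 4383 to 5287 in untreated HCT116 oxpl-R, 17668 to 23345 after oxaliplatin and 10047 to 18520 with both, and at 2530 to 5392 in HCT116 in all 4 conditions. Its differences were 1.31 against untreated cells (SE 0.29, adjusted p = 0.0471) and 1.48 against E1A alone (SE 0.29, adjusted p = 0.0165). TP53I3 had differences of 1.37 and 1.75. Of 12 alternatives, MDM2 lost its calls in 7 and 5 and TP53I3 in 8 and none, in that order. EGR1, an immediate early factor, also passed against both, by 1.80 and 1.36, the latter lost in 4 of 12 alternatives. It was lower in untreated HCT116 oxpl-R (1067, 932 and 868 against 3826, 3417 and 3754) and overlapped between the lines after E1A and oxaliplatin (5094, 4273 and 5961 against 5587, 5424 and 5899). The members of lists in these paragraphs were named because they passed.

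The largest positive difference, against untreated cells as against E1A alone, was in SUGCT, a mitochondrial CoA transferase of glutarate (chr7:40135005-40860763). In HCT116 it had 82.2, 89.0 and 124 counts untreated, 88.7, 43.6 and 32.3 after oxaliplatin and 24.4, 44.5 and 35.3 with both. In HCT116 oxpl-R it had 323, 306 and 231 untreated, 799, 1578 and 3313 after oxaliplatin and 1526, 1709 and 1797 with both. The lines thus moved apart. The difference was 4.04 against untreated cells (SE 0.52, adjusted p = 1.60e-04) and 4.56 against E1A alone (SE 0.52, adjusted p = 3.09e-05), and against oxaliplatin alone it was 0.47 and did not pass. KRT80, an epithelial keratin (chr12:52168996-52192014), had the most negative difference of the genes named for that test. It was at 257, 275 and 399 in untreated HCT116 and 1475, 1356 and 1392 with both, and at 1488, 1730 and 1506 and then 1065, 1127 and 773 in HCT116 oxpl-R, with a difference of -2.85 (SE 0.30, adjusted p = 2.92e-06). With both treatments every HCT116 oxpl-R library was below every HCT116 library, but this line difference was not itself called (log2FC -0.51, adjusted p = 0.117).

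**Figure D2:**
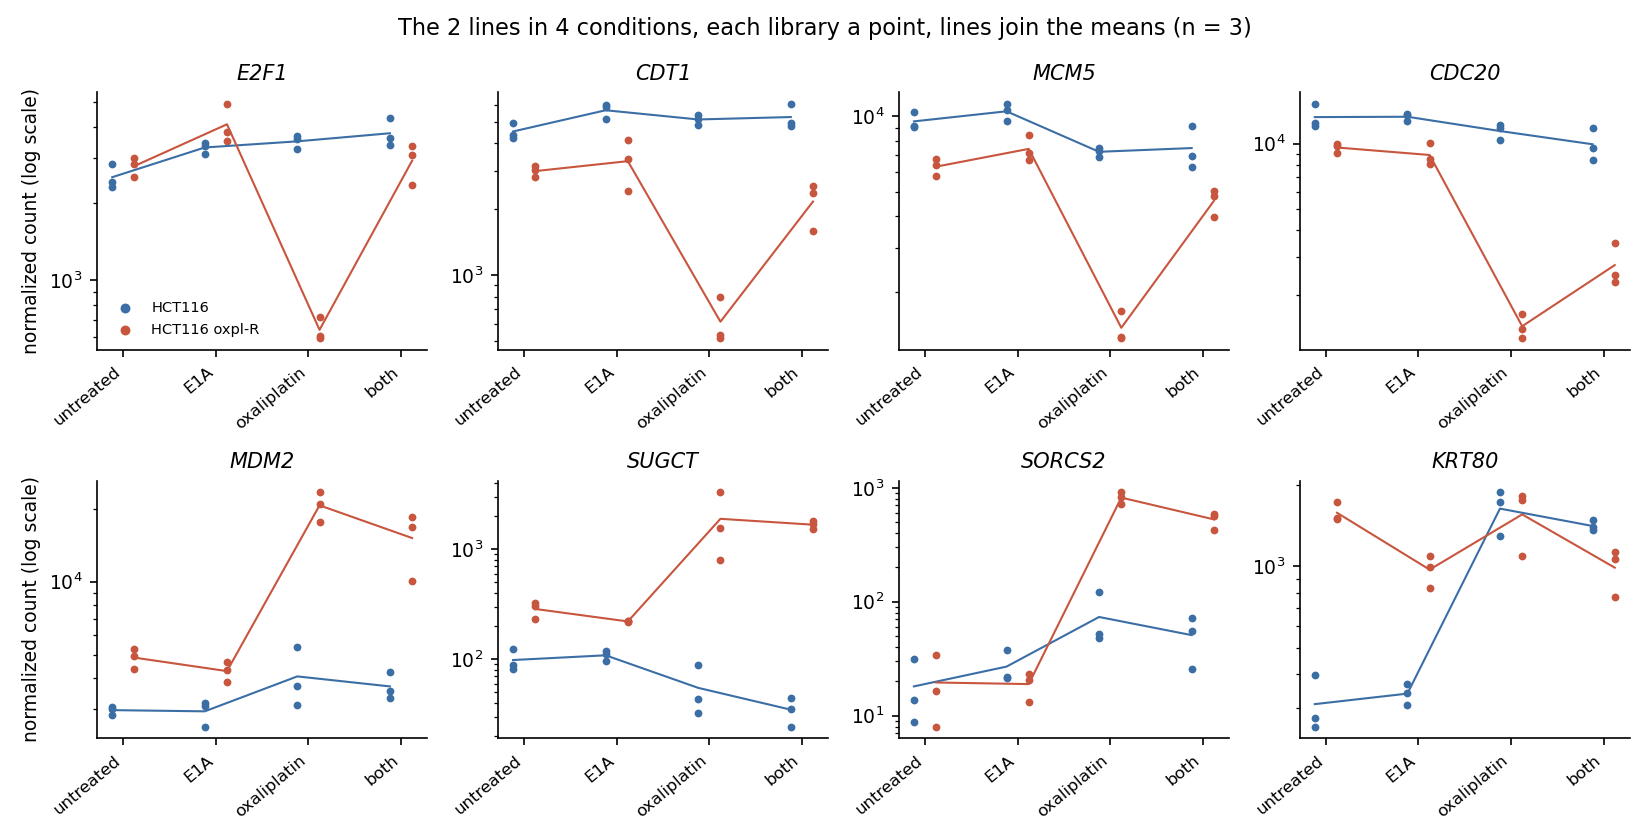
Normalized count (log scale, scaled over the 24 libraries) of 8 genes in the 4 conditions, each library a point, HCT116 blue and HCT116 oxpl-R red, lines joining the means of n = 3. E2F1, CDT1 and MCM5 are lowest in HCT116 oxpl-R after oxaliplatin alone and nearer to HCT116 with E1A as well, CDC20 is low in HCT116 oxpl-R in both oxaliplatin conditions, MDM2, SUGCT and SORCS2 are high there, and the points of KRT80 lie higher in HCT116 oxpl-R untreated and lower with both, where the difference was not called.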

How the data were processed

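RNA was sequenced as paired reads on an Illumina instrument in 24 libraries. The authors trimmed the reads with Trimmomatic, ran Salmon 1.6.0 against GENCODE transcripts (GRCh38) and used tximport to obtain values per gene. Estimated counts, not normalized, were deposited in a table of 33113 genes that here ends at SETP6. The deposited second table is named as TPM, but its column sums and values are those of length-scaled estimated counts, and it was read as such, unlike planned. Its 4854 later genes were taken from it and normalized and adjusted separately. Genes after TSC22D3 were not analysed here. Values were rounded to whole numbers. Columns were matched to samples by library name.

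In R 4.3.3, edgeR 4.0.16 was used with TMM normalization and the quasi-likelihood test on genes with any count in the 6 libraries, with Benjamini-Hochberg adjustment within each table. Genes with an adjusted p below 0.05 are called, and DEGs also have |log2FC| > 1. Differences between line differences come from a model of all 24 libraries. Depth sets the precision: a count of 0 was taken to allow 3 counts per library, lower bounds of fold changes use it, and ratios resting on 1 to 3 counts have exact 95% Poisson intervals, which cover counting error only. DESeq2 1.42.0 and limma 3.58.1 served for alternatives, and Python 3.11.15 with pandas 2.3.3, numpy 2.4.6 and matplotlib 3.10.9 for tables and plots. The tests were also run on simulated counts with 200 changed genes and the same spread in every library. That simulation held no library that stands apart as HCT116 replicate 1 does, so it does not cover this case. Gene positions are from GENCODE release 44, and promoter sequences from RefSeq (GRCh38.p14).

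The comparison, the 33 gene lists and the rules below were chosen with earlier results of these data known. The genes named include 12 of the most upregulated and 12 of the most downregulated DEGs. In these the lines did not overlap, and the higher line had 50 or more counts throughout. Clone names, pseudogenes and genes that mark sex were left out. BMP2 met these conditions too but was named with the BMP list. Up to 4 called members per list and direction were also named, with members not called where their role asks for it. The 5 largest differences in each direction per condition and redox genes named by the study completed the rule. Others, such as MDM2 or CDKN1A where a list holds more called members, were chosen after their values were seen. Alternatives were RLE normalization, DESeq2, filterByExpr, all 24 or 12 libraries in a fit, the replicate number as a block, limma on the second table, other cutoffs and each library left out. Leaving out the library of low mitochondrial share was chosen after seeing the data. Some genes that the rule selects are not reported here.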

Additional observations from a re-analysis of the deposited data

Results flagged for a closer look

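The results below are for genes whose difference between the lines was itself different between treatments, by edgeR's quasi-likelihood test of that difference in the model of 24 libraries, at an adjusted p below 0.05. Values are the line difference after E1A and oxaliplatin minus that in the other condition, on the log2 scale.

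Against untreated cells, the differences included 4.04 for SUGCT, 3.27 for SORCS2, 2.18 for CAPN15 and 2.18 for RPL22L1. Of 12 alternatives, SORCS2 lost its call in 2 and RPL22L1 in 1. SORCS2, a sorting receptor of neurons, was at 8.80 to 31.7 counts in untreated HCT116 and 8.03 to 34.2 in untreated HCT116 oxpl-R, and at 25.7 to 72.1 and 430.2 to 584 after E1A and oxaliplatin. CAPN15, a calpain, was at 2415 to 2901 and 1638 to 2163 in the untreated lines and at 295 to 438 and 1048 to 1320 with both. For RPL22L1 the parental line went from 10859 to 13435 counts untreated to 1508 to 2528 with both, while HCT116 oxpl-R was at 22812 to 34114 and 21186 to 24747. Negative differences were -2.85 for KRT80, -2.62 for ALPP, a placental alkaline phosphatase, -2.35 for INPP5D, an inositol phosphatase of blood cells, -2.07 for HOXA4, a homeobox factor, and -1.99 for KLK5, a kallikrein protease.

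Against oxaliplatin alone, the differences were 2.31 for PADI3, 2.19 for IGFLR1, 2.10 for E2F1, 1.86 for ASF1B and 1.82 for DTL, and the only negative one was -1.66 for the read-through gene RTEL1-TNFRSF6B, which shares reads with its parent genes. Of 12 alternatives, the call was lost in 7 for RTEL1-TNFRSF6B, 6 for DTL, 5 for PADI3 and 2 for IGFLR1. ASF1B was at 1014, 915 and 1168 counts in HCT116 oxpl-R after oxaliplatin and at 4024, 2804 and 3815 with E1A as well, against 5464 to 7834 in HCT116 in these conditions.

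Against E1A alone, the differences included 4.56 for SUGCT, 3.87 for SORCS2, 2.53 for CAPN15 and 1.92 for KIF26A. KIF26A, an atypical kinesin, was at 1683 to 1799 counts in HCT116 and 629.9 to 1229 in HCT116 oxpl-R with E1A, and at 1164 to 1455 and 2336 to 3102 with both, so that the order of the lines turned. Negative differences were -2.03 for KRT80, -1.89 for HOXA4, -1.76 for ANGPTL4, a lipase inhibitor, -1.46 for DHRS2, a dehydrogenase, and -1.38 for HR, a corepressor of hair growth. DHRS2 lost its call in 5 of 12 alternatives and HR in 1.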

How the results depend on the processing

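Alternatives were run for the 208 genes that the rule names. For some others, such as MDM2 and TNFRSF10B, single libraries were left out. No alternative is given for others in the text such as RB1 and KRT8. Of the 208, HR alone turned its direction: it was not called, and its log2FC ranged from -0.17 to 0.07. Of 2281 values for these genes, 160 lost and 12 gained a call, and of 312 values for 26 differences, 38 lost it. Of 161 chromosome medians, 60 moved by more than the SD of the medians with 1 library left out. Leaving out HCT116 replicate 1, which stands apart, gave 4136 called genes in place of 3586. For genes at 0 in a line, depth allows only a lower bound of the fold change.

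The 2133 DEGs became 630 at |log2FC| > 2 (452 higher, 178 lower), 3586 without a fold change cutoff (1637 lower) and 474 in glmTreat (325 higher, 149 lower). DEGs lower in HCT116 oxpl-R were 347 and 354 in limma on the second table at pseudocounts of 1 and 0.1. These limma fits were not normalized for library size. Single libraries left out gave 1753 to 2558 DEGs, 1142 to 1699 higher and 584 to 875 lower.

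Genes whose line difference differed from untreated cells were 69 with 12 libraries, 110 with filterByExpr, 339 with DESeq2, and 76 without the library of low mitochondrial share. For oxaliplatin alone they were 2 with 12 libraries and 108 with DESeq2. For E1A alone they were 16, 191 with DESeq2 and 29 with RLE. Single libraries left out gave 29 to 62, 7 to 44 and 14 to 49. The cause of these shifts was not tested.

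Replicate numbers are shared by both lines. Correlations of deviations between same-numbered libraries of the lines were 0.335, 0.013 and 0.111. Between libraries of different numbers they ranged from -0.343 to 0.244. With 3 libraries per line these values cannot decide whether the numbers pair the libraries. With the replicate block there were 2391 DEGs, and 71 genes differed from untreated cells.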
